A study of Mus musculus with 2 samples.

Results

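A set of 10 chemokine genes of the thymic medulla and of inducible responses was followed across the stromal cells of the mouse thymus: Ccl20, Ccl6, Ccl9, Ccl5, Ccl17, Ccl22, Cxcl9, Cxcl10, Cxcl14 and Xcl1. They were chosen by name and are 10 of the 32285 genes listed in the count matrices. The data are 2 single-cell RNA libraries (10x Genomics, 3' tags), both from E2F_M11 mice, in which CRISPR-Cas9 removed 2 E2F binding sites from the proximal promoter of Foxn1, the transcription factor that thymic epithelium needs. Both libraries hold thymic stroma from which CD45-positive blood cells had been depleted on magnetic beads. The edited promoter is shared by every cell described here, and wild-type libraries were not analysed here, so all comparisons run between cell types and none between genotypes. The sources used here do not give the age or number of animals behind a library, nor whether the libraries came from separate animals. The p-values therefore measure only how differences between gates vary between these 2 libraries.

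Chemokines are small secreted proteins that guide leukocytes through the receptor each cell carries. CCL17 and CCL22 bind CCR4, a receptor of thymocytes that enter the medulla after positive selection, and of regulatory T cells. CCL20 binds CCR6 and in the gut is made by the epithelium over lymphoid follicles, where microfold (M) cells take up antigen. CCL6 and CCL9 are rodent CC chemokines that act through CCR1, and CCL5 binds CCR1 and CCR3. CXCL9 and CXCL10 are interferon-inducible ligands of CXCR3, XCL1 binds XCR1 on cross-presenting dendritic cells, and CXCL14 is a chemokine of epithelia and fibroblasts. In the medulla, Aire drives the expression of tissue-restricted self-antigens, Ccl21a-high cells attract positively selected thymocytes, and mimetic cells are medullary epithelial cells that take on programmes of other tissues such as tuft cells, keratinocytes or microfold cells.

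Several of these genes are neighbours in the genome (GRCm38). Cxcl9 lies at chr5:92321347-92328079 and Cxcl10 at chr5:92346638-92348889, both on the minus strand. Ccl5 (chr11:83525778-83530518), Ccl9 (chr11:83572919-83578636) and Ccl6 (chr11:83587882-83593087) follow each other on the minus strand. Ccl22 (chr8:94745590-94751699) and Ccl17 (chr8:94810453-94812036) lie together on the plus strand. Ccl20 is at chr1:83116766-83119167 on the plus strand, Xcl1 at chr1:164931644-164935527 on the minus strand and Cxcl14 at chr13:56288643-56296551 on the minus strand.

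The promoters of 2 sets of genes that are described together below are shown, those of Ccl20, Ccl9 and Ccl6, which shared the microfold gate, and those of Cxcl10 and Cxcl9, the CXCR3 ligands. Each sequence is the 250 bases before the transcription start in RefSeq (GRCm38.p6), written 5′ to 3′ on the strand of the gene. RefSeq entries matched 9 of the 10 genes. Capitals mark matches, on either strand, to the interferon-stimulated response element (ISRE; GAAA, any 2 bases, GAAA), the kappa B site of NF-kB (GGG, any 3 bases, TTCC) or the gamma-activated site (GAS; TTC, any 3 bases, GAA).
Ccl20, chr1:83116516-83116765, plus strand: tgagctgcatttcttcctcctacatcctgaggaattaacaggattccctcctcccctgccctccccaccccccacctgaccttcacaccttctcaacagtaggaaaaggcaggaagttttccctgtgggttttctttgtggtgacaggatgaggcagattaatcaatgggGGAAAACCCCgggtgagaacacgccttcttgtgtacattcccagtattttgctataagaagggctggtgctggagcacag
Ccl9, chr11:83578637-83578886, minus strand: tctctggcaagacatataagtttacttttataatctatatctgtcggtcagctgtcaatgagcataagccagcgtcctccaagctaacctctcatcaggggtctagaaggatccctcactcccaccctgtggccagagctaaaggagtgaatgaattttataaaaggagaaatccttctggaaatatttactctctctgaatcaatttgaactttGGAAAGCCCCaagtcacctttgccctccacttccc
Ccl6, chr11:83593088-83593337, minus strand: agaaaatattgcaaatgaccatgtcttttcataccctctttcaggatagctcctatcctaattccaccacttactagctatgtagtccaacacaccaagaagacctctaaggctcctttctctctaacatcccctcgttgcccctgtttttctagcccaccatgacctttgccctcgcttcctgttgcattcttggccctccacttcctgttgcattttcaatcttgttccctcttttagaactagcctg
Cxcl10, chr5:92348890-92349139, minus strand: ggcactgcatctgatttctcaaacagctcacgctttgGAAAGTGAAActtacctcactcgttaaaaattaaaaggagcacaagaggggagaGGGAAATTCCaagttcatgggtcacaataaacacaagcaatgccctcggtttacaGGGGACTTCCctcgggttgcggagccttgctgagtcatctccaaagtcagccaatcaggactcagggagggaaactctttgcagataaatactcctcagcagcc
Cxcl9, chr5:92328080-92328329, minus strand: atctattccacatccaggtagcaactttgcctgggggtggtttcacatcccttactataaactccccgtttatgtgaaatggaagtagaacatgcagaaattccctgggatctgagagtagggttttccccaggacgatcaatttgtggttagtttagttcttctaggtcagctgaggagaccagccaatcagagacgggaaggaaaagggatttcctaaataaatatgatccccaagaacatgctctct
The Cxcl10 window held an ISRE match beginning 213 bases before the start and kappa B matches at 159 and 104 bases. The Ccl20 window had a kappa B match on the opposite strand at 80 bases, and the Ccl9 window one at 35 bases. Neither the Ccl6 nor the Cxcl9 window had a match to these 3 motifs. Of the promoters not printed, Cxcl14 had an ISRE match at 172 bases and a GAS match at 191, and Ccl17 a GAS match at 99. Among 32851 RefSeq promoter windows of the same length, 2.98% had an ISRE match, 4.65% a kappa B match and 7.02% a GAS match.

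The 5110 barcodes of library 1 carried 41075328 UMIs, and the 19163 barcodes of library 2 carried 42583831. Of the cells kept, the median had 8727 UMIs in library 1 and 1874 in library 2, and 13 of their barcode sequences occurred in both libraries (30 over all barcodes). Cells were assigned by marker genes, with none of the 10 chemokines among the markers, to the cortical gate (98 and 97 cells in libraries 1 and 2), the Aire-expressing gate (276 and 162), the Ccl21a-high gate (365 and 302), the tuft (54 and 36), keratinocyte (32 and 103), microfold (35 and 29) and secretory (9 and 24) mimetic gates, the fibroblast gate (1871 and 2473) and the endothelial gate (86 and 65). Cells that met no gate, or markers of more than 1, made up 16.6% and 33.8% of the cells kept. The gates carried the markers of their label: Psmb11, the thymus proteasome subunit, stood at 941 and 824 UMIs per 1000000 UMIs of the gate (CPM) in the cortical gate and at no more than 5.92 in the other epithelial gates, and Gp2, an uptake receptor of microfold cells, at 973 and 706 CPM in the microfold gate against 8.02 and 2.12 in the Aire-expressing gate. The microfold gate also held Aire, at 290.1 and 43.1 CPM, where the Aire-expressing gate had 628 and 648. Tyrobp, a myeloid adaptor, reached at most 15.2 CPM in these epithelial and stromal gates and 1955 and 1999 CPM in the macrophage gate.

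**Figure D1:**
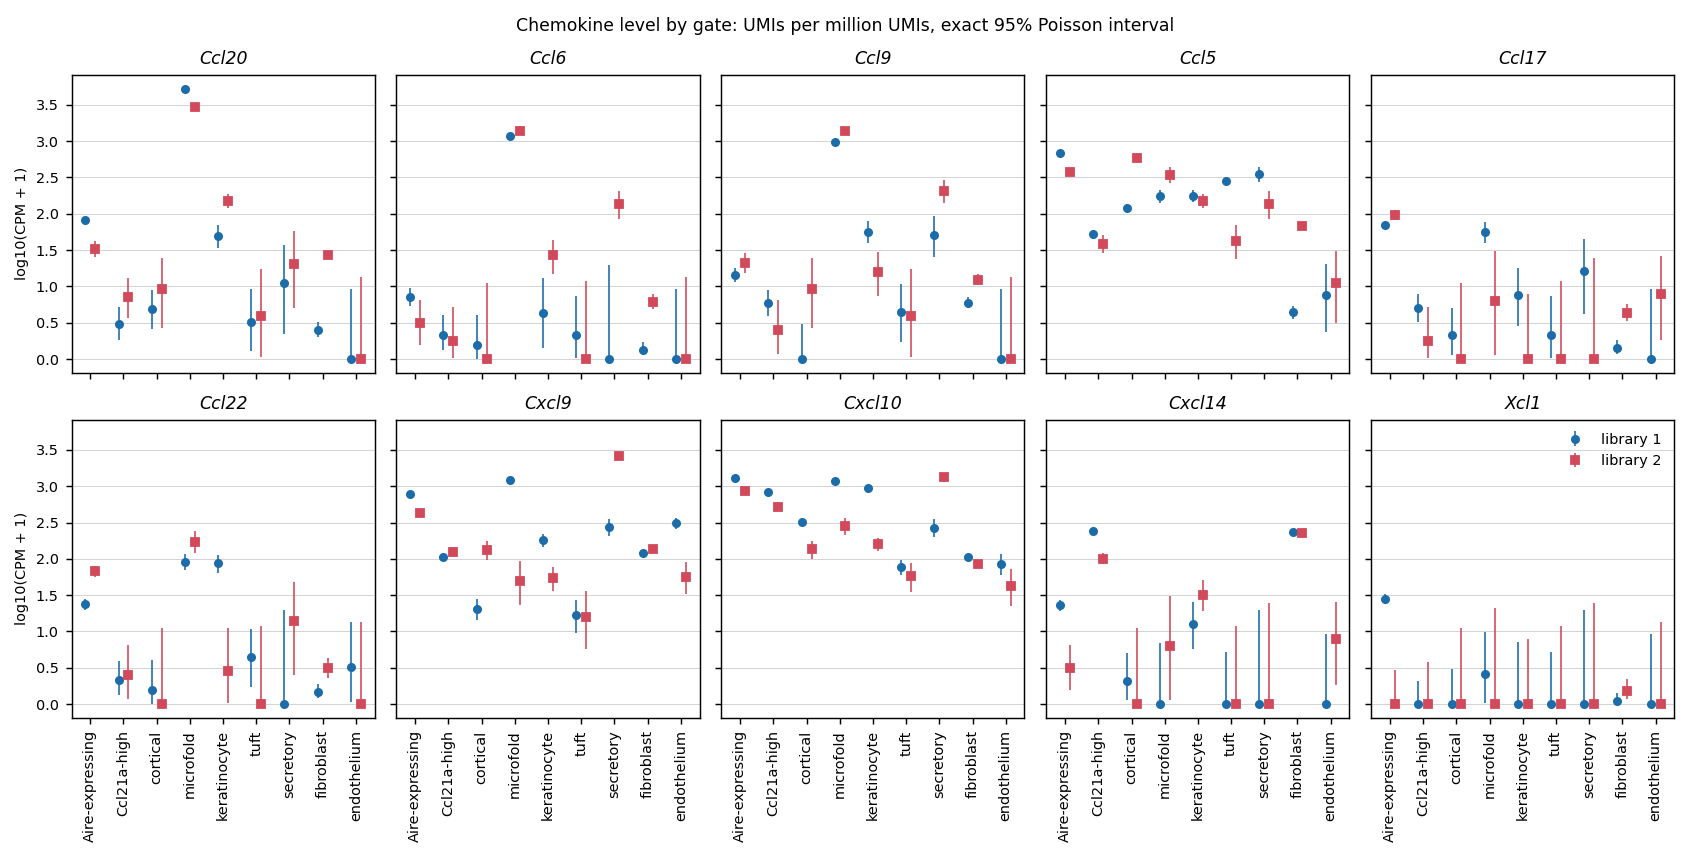
Level of each chemokine, as log10 of CPM plus 1, in 9 gates, with library 1 as circles and library 2 as squares and bars for the exact 95% Poisson interval of the count. Ccl20, Ccl6 and Ccl9 stand highest in the microfold gate, Ccl17 in the Aire-expressing gate, and Cxcl14 in the Ccl21a-high and fibroblast gates.

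The CCR6 ligand Ccl20 was concentrated in the microfold gate, together with the CCR1 ligands Ccl6 and Ccl9. Ccl20 stood at 5207 CPM in library 1 (3285 UMIs) and 2954 CPM in library 2 (548 UMIs), against 81.3 and 31.8 CPM in the Aire-expressing gate and 48.6 and 149 CPM in the keratinocyte gate. A single cell supplied 1907 of the 3285 and 313 of the 548 Ccl20 UMIs. Ccl6 stood at 1160.4 and 1402 CPM in the microfold gate and at 6.19 and 2.12 CPM in the Aire-expressing gate. Ccl9 stood at 965 and 1402 CPM in the microfold gate and at 13.5 and 20.1 CPM in the Aire-expressing gate. In each library the microfold gate was thus the highest of the 9 gates for all 3 genes. The secretory mimetic gate came next for Ccl6 and Ccl9 in library 2, with 135 and 205 CPM, while its 9 cells in library 1 had 0 and 50.6 CPM. No endothelial cell of either library had a UMI of Ccl20, Ccl6 or Ccl9. In the 9 and 17 microfold cells with no UMI of 23 macrophage, dendritic, B and natural killer markers, Ccl20 stood at 2202 and 4012 CPM, Ccl6 at 827 and 884 CPM and Ccl9 at 763 and 1213 CPM.

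Ccl20 was also found in most microfold cells at equal depth. After every cell was thinned to 1000 UMIs, 60.0% of the microfold cells of library 1 had a Ccl20 UMI (exact Clopper-Pearson 95% interval 42.1 to 76.1) and 75.9% in library 2 (56.5 to 89.7). Thymocytes left after the depletion, which served as a measure of background, had 0.694% and 1.32%. Unthinned, the microfold shares were 71.4% and 86.2% at a median of 17074 and 2181 UMIs per cell, where thymocytes had a median of 2176 and 1846 UMIs. For Ccl6 the thinned shares of the microfold gate were 42.9% (26.3 to 60.6) and 48.3% (29.4 to 67.5), against 0% and 0.331% in thymocytes, and for Ccl9 they were 45.7% (28.8 to 63.4) and 69.0% (49.2 to 84.7), against 0% and 0.567%. These intervals cover counting error only. The 0 of 144 thymocytes of library 1 allow a share of up to 2.08%, taken as 3 cells of the total.

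Within the microfold gate the 3 genes were found in the same cells. Of the Ccl20-positive microfold cells, 88.0% and 92.0% also had a Ccl9 UMI, compared with 20.0% and 25.0% of the Ccl20-negative ones. A Ccl6 UMI was found in 76.0% of the Ccl20-positive cells in each library and in 0% and 25.0% of the Ccl20-negative cells. The Ccl20-negative cells were the deeper ones, with medians of 18227.5 and 12051 UMIs against 15666 and 1918, and numbered 10 and 4. Ccl22 was found in 2 and 1 of the 25 Ccl20-positive cells of libraries 1 and 2 and in 3 and 1 of the Ccl20-negative cells, too few for a comparison.

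**Figure D2:**
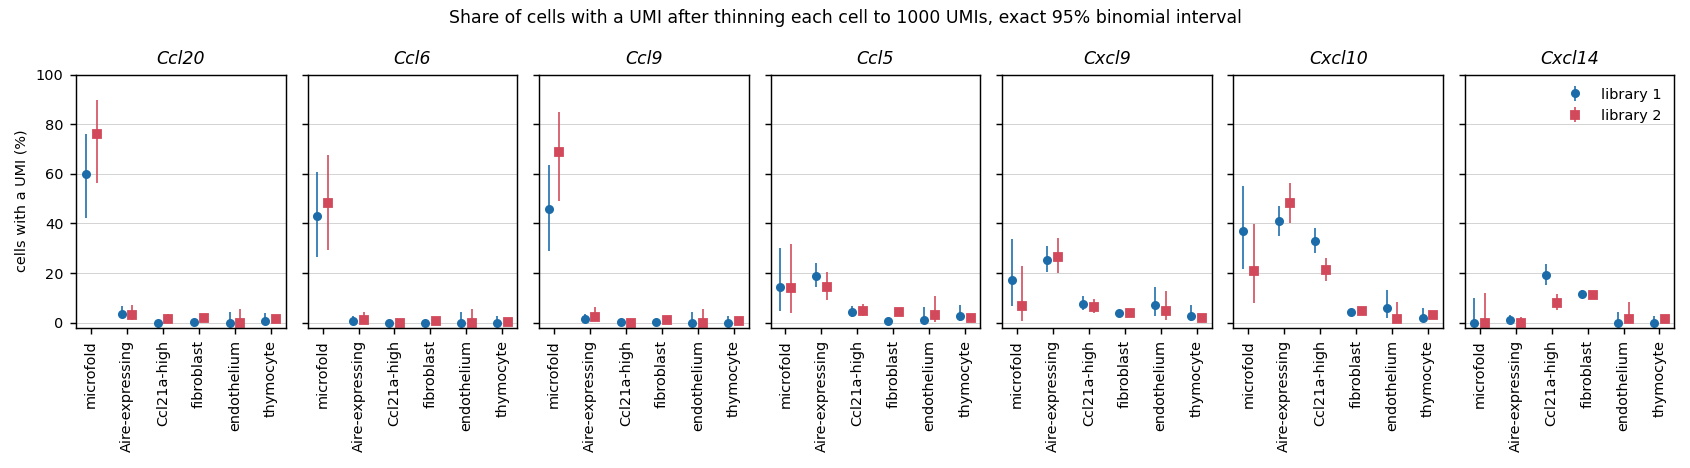
Percent of cells with at least 1 UMI of 7 chemokines after each cell was thinned to 1000 UMIs, by gate, with library 1 as circles, library 2 as squares and exact 95% binomial intervals. In the microfold gate 60.0% and 75.9% of cells had Ccl20, whereas the thymocyte gate had 0.694% and 1.32%.

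The microfold gate was compared with the other mimetic gates in a model of the summed counts of 8 gates in both libraries (edgeR quasi-likelihood test, 12135 genes, library as a block). The secretory gate was left out because library 1 had under 10 such cells, so the other mimetic cells are the mean of the tuft and keratinocyte gates. Of the 9 chemokines that passed the filter on low counts, 7 were higher in the microfold gate and none was lower, where 9.26% of all genes tested were higher and 4.26% lower (13.5% in either direction). The median log2 fold of the 9 was 4.13, against -0.05 over all genes. Ccl20 was higher by a log2 fold of 8.47 (SE 0.96, edgeR adjusted p = 0.000313), Ccl6 by 8.82 (SE 0.78) and Ccl9 by 6.97 (SE 0.59). Within libraries 1 and 2, the log2 folds were 9.05 and 7.20 for Ccl20 and 6.30 and 7.76 for Ccl9, while Ccl6 had only 3 and 14 UMIs in tuft and keratinocyte cells. These within-library folds, here and below, are differences of scaled log2 CPM with a prior count of 2, and not fitted folds. Cxcl9 (4.13, SE 0.96) and Cxcl10 (2.21, SE 0.40) were also higher. For Cxcl9 this rested on library 1, with 1225 CPM and a log2 fold of 4.81, while library 2 had 48.5 CPM from 9 UMIs and a log2 fold of 1.01. The calls of Ccl17 (4.84) and Ccl22 (3.73) rested on single cells, which held 28 of 35 and 51 of 57 UMIs in library 1. Without the highest cell of each sum their edgeR adjusted p was 0.131 and 0.424. Ccl5 (0.72, SE 0.94) did not pass, nor did Cxcl14, with 1 UMI in the microfold gate.

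A comparison with the Aire-expressing gate was added after the levels had been seen. Ccl20, Ccl6 and Ccl9 were higher in the microfold gate, by log2 folds of 6.25 (SE 1.04, edgeR adjusted p = 0.00435), 8.03 (SE 0.84) and 6.25 (SE 0.67), and these were the only chemokines of the 10 that passed. In this comparison 5.43% of all genes tested were higher and 4.38% lower (9.81% in either direction). Within libraries 1 and 2 the log2 folds were 6.18 and 6.52 for Ccl20, 7.59 and 8.98 for Ccl6, and 6.28 and 6.08 for Ccl9. The 3 calls were kept in all 8 alternatives that gave a test.

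The CCR4 ligand Ccl17 was highest in the Aire-expressing gate, whereas Ccl22 was highest in the microfold gate in each library. Ccl17 stood at 68.9 CPM in library 1 (378 UMIs) and 95.3 CPM in library 2 (180 UMIs), and at 4.08 and 0.759 CPM in the Ccl21a-high gate. The gate held 75.4% and 54.1% of all Ccl17 UMIs of the cells kept. In the other 8 gates, Ccl17 passed 10 CPM only in library 1, in the microfold gate (55.5 CPM, 28 of 35 UMIs from 1 cell) and in the secretory gate (15.2 CPM from 3 UMIs). Ccl22 stood at 22.6 and 66.2 CPM in the Aire-expressing gate and at 1.17 and 1.52 CPM in the Ccl21a-high gate. The Aire-expressing gate held 23.0% and 46.1% of all Ccl22 UMIs, and cells in no gate 51.8% and 25.8%. The microfold gate had 90.4 and 172.5 CPM of Ccl22, where single cells supplied 51 of 57 and 29 of 32 UMIs. In the keratinocyte gate Ccl22 was at 85.4 CPM in library 1, with 36 of 51 UMIs in 1 cell, and at 1.83 CPM in library 2. The CCR4 ligands were seen in a minority of Aire-expressing cells: after thinning, 7.25% (4.48 to 11) and 2.47% (0.677 to 6.20) had Ccl17, and 2.54% (1.03 to 5.16) and 7.41% (3.89 to 12.6) had Ccl22. Thymocytes had 0.694% and 0.0473% for Ccl17 and 0.694% and 0.520% for Ccl22. Before thinning, 24.5% and 50% of the Ccl17-positive cells had a Ccl22 UMI, compared with 9.87% and 8.70% of the Ccl17-negative cells, which were shallower (median 17621 and 5645.5 UMIs against 20557 and 7690.0).

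Ccl5, a ligand of CCR1 and CCR3, was high in the Aire-expressing gate but spread over other epithelial gates. The Aire-expressing gate had 688 CPM in library 1 and 374 CPM in library 2, and the Ccl21a-high gate 51.0 and 37.9 CPM. The microfold gate had 173 and 345 CPM, and the keratinocyte gate 177 and 150 CPM. The secretory gate had 349 and 135 CPM, and the tuft gate 285 and 41.5 CPM. Single cells supplied 218 of 252 tuft UMIs in library 1 and all 21 secretory UMIs in library 2. The cortical gate had 120.5 and 594 CPM, yet 1 cell supplied 158 of its 217 UMIs in library 1 and another 211 of its 217 UMIs in library 2. After thinning, 18.8% (14.4 to 24.0) and 14.2% (9.22 to 20.5) of Aire-expressing cells had Ccl5. Cortical cells had 2.04% and 3.09% and thymocytes 2.78% and 2.03%, so the cortical share lay near that of thymocytes. The thymocyte gate also held natural killer and innate markers, which summed to 109 and 209 CPM over 7 genes. The part of such cells in its Ccl5 share was not tested. The microfold shares were 14.3% (4.81 to 30.3) and 13.8% (3.89 to 31.7). Keratinocyte cells had 6.25% and 5.83%, tuft cells 3.70% and 2.78%, and secretory cells 22.2% and 4.17%. Xcl1 was found in the Aire-expressing gate of library 1 only, with 150 UMIs (27.3 CPM) in 5 of 276 cells and 75 of them in 1 cell, whereas none of the 162 cells of library 2 had a UMI. That allows up to 1.85% of cells with a UMI (3 cells of the total) at the lower depth of library 2, where these cells had a median of 5970.5 UMIs against 18717.5. Over both libraries Xcl1 was at least 32.2-fold higher in the Aire-expressing than in the Ccl21a-high gate and at least 14.7-fold higher than in the cortical gate, with the gates at 0 set to 3 UMIs over both libraries. These bounds come from library 1 alone. There, the 57 Aire-expressing cells with no UMI of 23 macrophage, dendritic, B and natural killer markers had no Xcl1 UMI. With Xcl1 in only 5 of the 276 cells, 57 cells are too few to draw a conclusion from this. The part of blood cells in the Xcl1 values was not tested. Xcl1 did not pass the filter on low counts and had no test. The thymocyte gate had 11.6 and 4.97 CPM of Xcl1, and cells in no gate held 66.5% and 65.4% of its UMIs.

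Aire-expressing cells were set against Ccl21a-high cells, the other main state of the medulla. Of the 9 chemokines tested, 5 were higher in the Aire-expressing gate and 1 was lower, where 21% of all genes tested were higher and 13.6% lower (34.7% in either direction). The median log2 fold of the 9 was 2.43, against 0.11 over all genes. Ccl22 was higher by a log2 fold of 5.04 (SE 1.20, edgeR adjusted p = 0.00712) and Ccl17 by 4.83 (SE 0.90, adjusted p = 0.00181). Ccl20 was higher by 4.32 (SE 1.17) and Ccl5 by 3.72 (SE 1.13). Ccl9 was higher by 2.18 (SE 0.76, adjusted p = 0.0456), a call that was lost with DESeq2 (adjusted p = 0.0799) and with at least 4 Aire UMIs per cell (edgeR adjusted p = 0.0562). Cxcl14 had a log2 fold of -3.58 (SE 0.64, adjusted p = 0.00174) and was lower. All 6 had the same direction in each library. The log2 folds in libraries 1 and 2 were 5.02 and 2.40 for Ccl20, 3.87 and 3.43 for Ccl5, and -3.28 and -5.03 for Cxcl14. Ccl9 was at 4.95 and 1.52 CPM in the Ccl21a-high gate, and Ccl17 and Ccl22 had no more than 4 UMIs there in at least 1 library. Cxcl9 (2.43, SE 1.03, adjusted p = 0.0874), Ccl6 (2.32, SE 1.23) and Cxcl10 (0.85, SE 0.45) did not pass.

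Markers of blood cells also differed between the Aire-expressing and Ccl21a-high gates. The 12 macrophage and dendritic genes summed to 170.2 and 221 CPM in the Aire-expressing gate with none at 0, and to 75.2 and 106 CPM in the Ccl21a-high gate with 1 and 4 at 0. C1qa, a complement gene of macrophages, stood at 15.3 and 67.8 CPM against 1.75 and 2.28 CPM. The 6 B cell genes summed to 89.5 and 98.0 CPM against 63.5 and 78.9 CPM. The levels were therefore also taken in cells with no UMI of the 23 markers, 57 and 57 cells of the Aire-expressing and 191 and 189 of the Ccl21a-high gate. In these Aire-expressing cells Ccl17 was at 87.5 CPM in library 1 and at 12.9 CPM, from 5 UMIs, in library 2, and in the Ccl21a-high cells at 7.15 and 1.16 CPM. Ccl22 was at 3.98 and 20.6 CPM, from 3 and 8 UMIs, against 1.19 and 0 CPM. Ccl5 was at 1649 and 118 CPM against 60.2 and 38.3 CPM. Ccl20 was at 53.0 CPM in library 1 against 1.19 CPM, while in library 2 it had 1 UMI (2.57 CPM) against 5.81 CPM. Ccl9 was at 29.2 and 5.14 CPM against 5.96 and 1.16 CPM. Cxcl14 was lower in the Aire-expressing cells here too, at 6.63 and 0 CPM against 249.6 and 94.1 CPM. Without marker-positive cells, the Aire-expressing gate thus had the higher level for Ccl17, Ccl22, Ccl5 and Ccl9 in both libraries and for Ccl20 in library 1 only. For Ccl22 in library 1 this rested on 3 against 2 UMIs, and for Ccl9 in library 2 on 2 against 1. In library 2 the levels of Ccl17, Ccl20, Ccl5, Ccl9 and Ccl22 were below those of the whole gate. In library 1 Ccl22 (3.98 against 22.6 CPM) and Ccl20 (53.0 against 81.3 CPM) were below the whole gate. Ccl17, Ccl5 and Ccl9 were above it there. The 14 and 8 Aire-expressing cells that also lacked thymocyte markers were too few for a comparison. They had 0 and 2 Ccl17 UMIs, 1 and 7 Ccl22 UMIs and 24 and 0 Ccl5 UMIs. For Ccl9 they had 6 and 1 UMIs, and for Ccl20 4 and 1. No test was made of these cells.

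Against the cortical gate the Aire-expressing gate had 7 chemokines higher and none lower, where 19.2% of all genes tested were higher and 13.2% lower (32.4% in either direction). The median log2 fold of the 9 was 3.58, against 0.14 over all genes. Cxcl10 was higher by a log2 fold of 2.61 (SE 0.48, edgeR adjusted p = 0.00210). Both CCR4 ligands passed, but the cortical gate had only 2 Ccl17 UMIs and 1 Ccl22 UMI over both libraries. The ratio of the pooled levels was 81.9 for Ccl17 (counting interval 22.6 to 678) and 73.1 for Ccl22 (13 to 2900). The pooled ratio was 11 for Ccl9 (3.66 to 54.0), from 3 cortical UMIs, and 18.4 for Cxcl14 (4.98 to 153), from 2. Ccl20 passed with a log2 fold of 3.82 (SE 1.27, adjusted p = 0.0401) and Cxcl9 with 3.27 (SE 1.16, adjusted p = 0.0495). These 4 calls were the least stable. Ccl20 had an adjusted p of 0.0540 without the highest cell of each sum, and Cxcl9 one of 0.0508 with RLE scaling, 0.0663 in deeper cells and 0.0507 with at least 4 Aire UMIs. Ccl9 had 0.0523 with DESeq2 and 0.0772 with stricter gates, and Cxcl14 had 0.149 with stricter gates, 0.0649 with at least 4 Aire UMIs and 0.0730 without the highest cell of each sum. In libraries 1 and 2 the log2 folds were 2.21 and 2.97 for Cxcl10 and 5.48 and 2.00 for Cxcl9, and Ccl20 was at 3.89 and 8.21 CPM in the cortical gate, from 7 and 3 UMIs. Ccl6, with 1 cortical UMI, did not pass (pooled ratio 11.2, counting interval 1.89 to 452). Ccl5 did not pass (1.07, SE 1.06), and its direction differed between the libraries (2.73 and -0.38). Without the highest cell of each sum the log2 fold of Ccl5 was 4.20 (edgeR adjusted p = 0.00885). Markers of thymocytes summed to 1169.9 and 1051 CPM over 10 genes in the cortical gate and to 158 and 416 CPM in the Aire-expressing gate, with no marker at 0 in either gate, and their part in these differences was not tested.

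**Figure D3:**
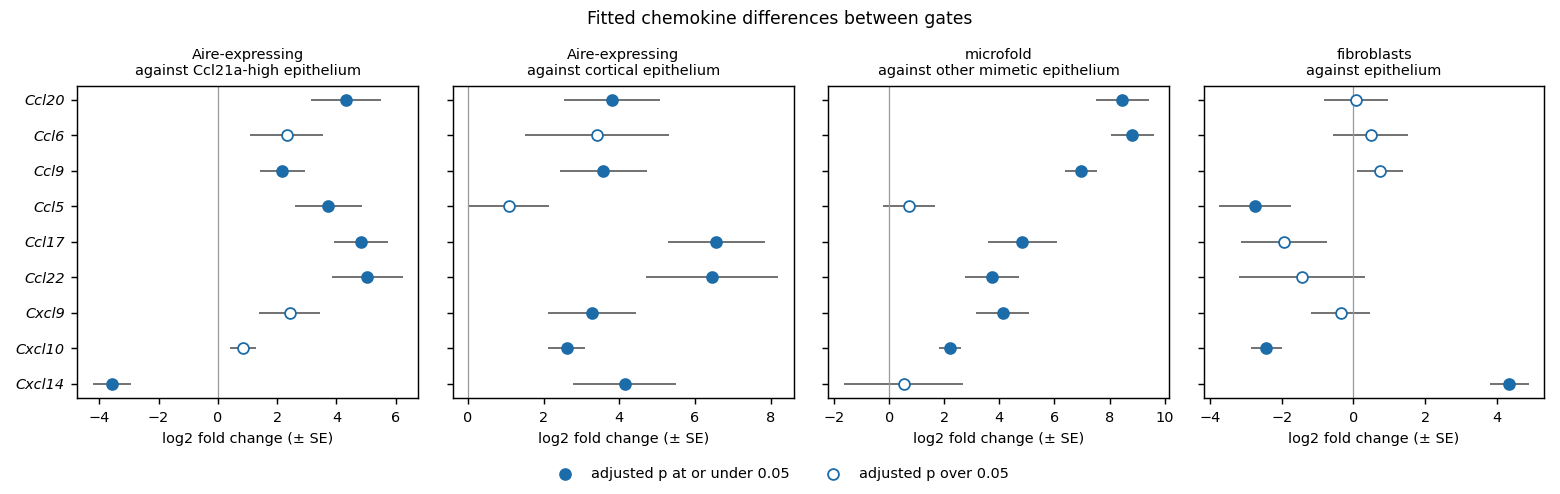
Fitted log2 fold change of the 9 chemokines tested in 4 comparisons, with bars of 1 SE and filled points for an edgeR adjusted p at or under 0.05. Between the Aire-expressing and Ccl21a-high gates, Cxcl14 alone lies on the left, at -3.58, while Ccl22 and Ccl17 reach 5.04 and 4.83. Fitted folds of genes with 3 or fewer UMIs in a gate, such as Ccl17 and Ccl22 in the cortical gate, depend on the prior count.

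The CXCR3 ligands Cxcl9 and Cxcl10 were broadly present in the epithelium and reached beyond it. Cxcl10 stood at 1293 and 865 CPM in the Aire-expressing gate, at 833 and 515 CPM in the Ccl21a-high gate and at 325 and 134 CPM in the cortical gate. The tuft gate was the lowest epithelial gate for Cxcl10 in each library, at 75.8 and 56.3 CPM. Cxcl9 stood at 776 and 433 CPM in the Aire-expressing gate and at 104 and 124 CPM in the Ccl21a-high gate. After thinning, 40.9% (35.1 to 47.0) and 48.1% (40.2 to 56.1) of Aire-expressing cells had Cxcl10, and 25.4% (20.3 to 30.9) and 26.5% (19.9 to 34.0) had Cxcl9. The thinned shares of Cxcl10 in the Ccl21a-high gate were 32.9% (28.1 to 38.0) and 21.2% (16.7 to 26.2), and those of Cxcl9 were 7.40% and 6.29%. Thymocytes had 2.08% and 3.12% for Cxcl10 and 2.78% and 1.89% for Cxcl9, below each of these shares, although for Cxcl9 in the Ccl21a-high gate of library 1 the intervals overlapped (4.93 to 10.6 and 0.762 to 6.96). In mimetic gates the values of both genes depended on the library. Cxcl9 in the secretory gate was at 273 CPM in library 1 and 2636 CPM in library 2, where 210 of 411 UMIs came from 1 cell. Cxcl10 in the keratinocyte gate was at 933 and 158 CPM.

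Tuft and keratinocyte cells together were then set against the Aire-expressing gate. Of the 9 chemokines, 3 were lower and none was higher, where 17% of all genes tested were lower and 10.4% higher (27.3% in either direction). The log2 fold of Ccl17 was -5.69 (SE 0.99, edgeR adjusted p = 0.00174), that of Cxcl9 -4.08 (SE 0.94) and that of Cxcl10 -2.89 (SE 0.39, adjusted p = 0.000470). Within libraries 1 and 2 the log2 folds were -3.96 and -4.14 for Cxcl9 and -2.41 and -3.43 for Cxcl10. Ccl17 was at 6.70 CPM in keratinocyte and 1.13 CPM in tuft cells of library 1 and had no UMI in those of library 2. The median log2 fold of the 9 was -2.22, against -0.13 over all genes. Cxcl14 had no UMI in tuft cells of either library and stood at 11.7 and 31.2 CPM in keratinocyte cells. Without the highest cell of each sum, 6 of the 9 passed, with Ccl22 (-3.34), Ccl5 (-3.35) and Ccl9 (-4.52) added.

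Cells of the Aire-expressing gate were split within each library into 3 equal ranges of Aire per UMI, which are ranges and not cell types. Ccl20 was higher in each higher range in both libraries, with 36.9, 101 and 109 CPM in library 1 and 3.94, 24.4 and 70.9 CPM in library 2. Ccl22 had the same order, with 13.3, 18.2 and 35.9 CPM in library 1 and 15.8, 69.1 and 124.5 CPM in library 2. The exact intervals of the lowest and highest range did not overlap for either gene, but they cover counting error only. Ccl17 had no common order: library 1 was lowest in the lowest range (21, 124.5 and 69.7 CPM) and library 2 was highest there (153.7, 83.4 and 34.7 CPM). Ccl5 was lower in each higher range in library 1 (1192, 523 and 314 CPM) and highest in the middle range in library 2 (326, 577 and 274 CPM). Single cells weigh on these sums, since 1 cell held 113 of the 446 Ccl20 UMIs of library 1 and another 26 of the 60 of library 2. For Ccl22, 1 cell held 18 of the 124 UMIs of library 1 and another 30 of the 125 of library 2. No test was made of these ranges.

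**Figure D4:**
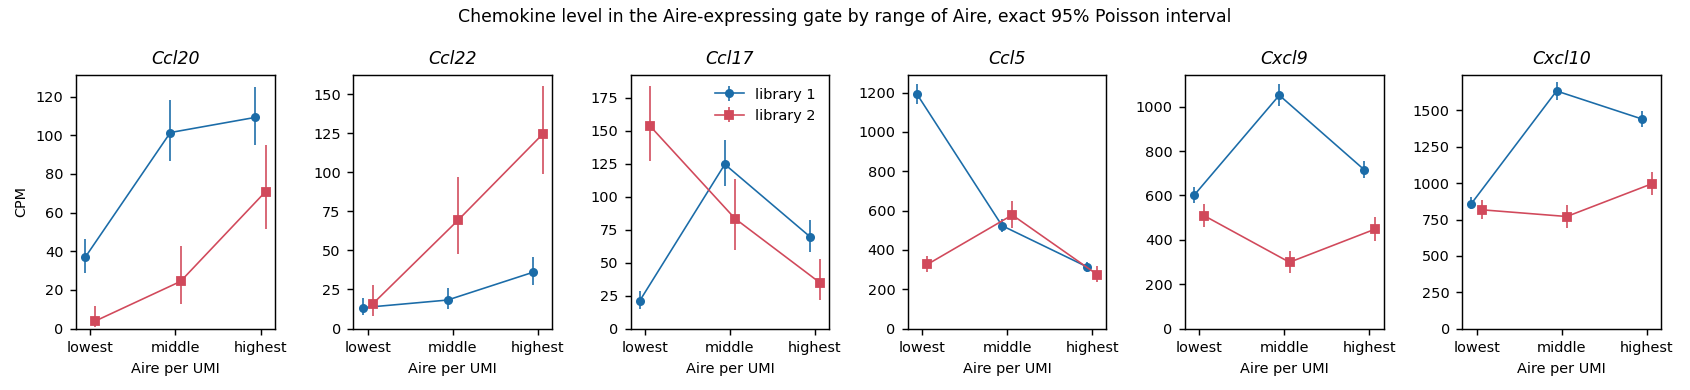
Level in CPM of 6 chemokines in the Aire-expressing gate, split within each library into 3 equal ranges of Aire per UMI, with exact 95% Poisson intervals for library 1 (circles) and library 2 (squares). Ccl20 reaches 109 and 70.9 CPM and Ccl22 35.9 and 124.5 CPM in the highest range, each the highest of the 3 ranges of its library.

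Cxcl14 had a pattern of its own, shared by Ccl21a-high epithelium and fibroblasts. It stood at 240.1 and 100.2 CPM in the Ccl21a-high gate and at 236 and 225 CPM in the fibroblast gate. The Aire-expressing gate had 22.0 and 2.12 CPM, the cortical gate 1.11 and 0 CPM and the endothelial gate 0 and 6.88 CPM. Fibroblasts held 78.5% and 74.7% of all Cxcl14 UMIs of the cells kept. The 10 fibroblast markers summed to 1180 and 1976 CPM in the Ccl21a-high gate and to 285 and 691 CPM in the Aire-expressing gate. In the fibroblast gate they summed to 38284 and 32919 CPM. The part of fibroblast RNA in the Cxcl14 difference between the 2 epithelial gates was not tested. After thinning, 19.2% (15.3 to 23.6) and 7.95% (5.16 to 11.6) of Ccl21a-high cells and 11.4% (10.0 to 13) and 11% (9.79 to 12.3) of fibroblasts had a Cxcl14 UMI, against 0% and 1.65% of thymocytes. In a comparison added after the levels had been seen, fibroblasts and Ccl21a-high cells differed by a log2 fold of 0.58 for Cxcl14 (SE 0.55, edgeR adjusted p = 0.492), which did not pass the test. The within-library values were 0.05 and 1.14.

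Among fibroblasts, Cxcl14 was highest in cells with Col15a1, a basement membrane collagen, and without Pi16 or Dpp4, markers of capsular fibroblasts. It was lowest in cells with Pi16 or Dpp4 and no Col15a1. Cells with Col15a1 and neither Pi16 nor Dpp4 (938 and 887 cells) had 421 and 436 CPM of Cxcl14. Cells with Pi16 or Dpp4 and no Col15a1 (358 and 732 cells) had 1.20 and 23.2 CPM, and cells with both kinds of marker had 166 and 94.9 CPM. The median depth was 7983 and 3319 UMIs in the Col15a1 cells and 11221.5 and 1561.5 UMIs in the Pi16 or Dpp4 cells. Cxcl9 was at 181 and 162 CPM in the Col15a1 cells and at 11.3 and 44.0 CPM in the Pi16 or Dpp4 cells. Cxcl10 was at 159 and 122 CPM in the Col15a1 cells and at 27.2 and 48.7 CPM in the Pi16 or Dpp4 cells. The summed levels of the 3 genes were thus each higher in the Col15a1 cells of both libraries, with exact intervals that did not overlap. These intervals cover counting error only and not the spread between cells. Over all fibroblasts, single cells held 297 of 2107 and 232 of 1275 Cxcl9 UMIs in libraries 1 and 2. For Cxcl10 they held 237 of 1867 and 113 of 804, and for Cxcl14 135 of 4166 and 78 of 2141. The thinned shares of cells were also higher in Col15a1 cells for Cxcl14 (18.2% and 20.4% of Col15a1 cells against 0% and 3.14% of Pi16 or Dpp4 cells), but in library 2 not clearly for the other genes. There Cxcl9 was found in 3.61% (2.48 to 5.05) against 3.01% (1.89 to 4.52) and Cxcl10 in 4.28% against 4.64%. In library 1 the shares were 5.33% against 1.12% for Cxcl9 and 5.44% against 1.68% for Cxcl10. Cells with neither kind of marker, 83 and 340 of low depth (median 5117 and 1413.5 UMIs), had 182 and 305 CPM of Cxcl9. Their Cxcl14 was at 23.2 and 107 CPM, which in library 2 lay near the 94.9 CPM of cells with both kinds of marker. In fibroblasts, a Cxcl10 UMI was found in 31.8% and 33.9% of the Cxcl9-positive cells and in 8.50% and 7.76% of the Cxcl9-negative cells, the former with medians of 9799 and 3614 UMIs and the latter with 8604 and 2048. In endothelium these shares were 40.0% and 33.3% against 5.63% and 1.89%.

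**Figure D5:**
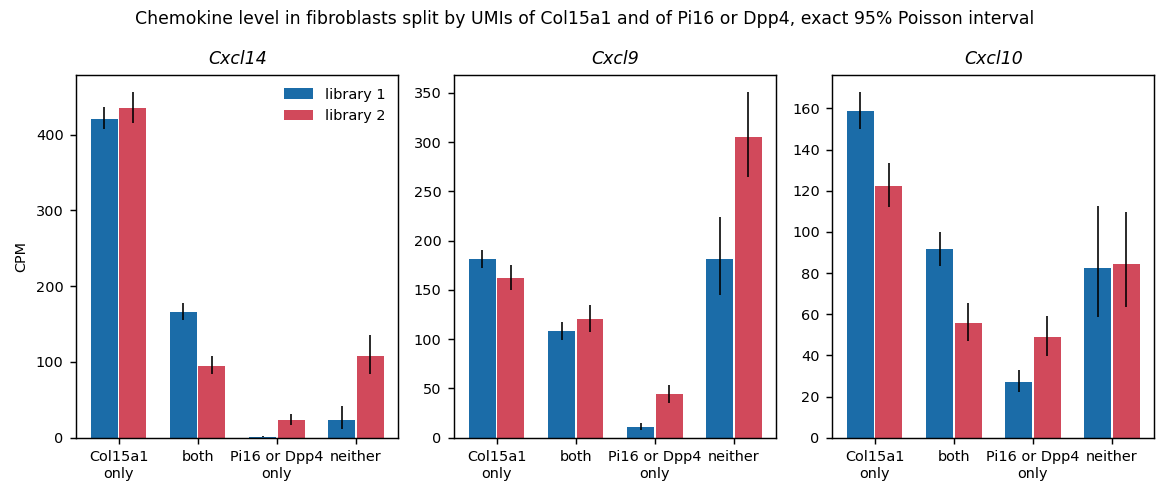
Level in CPM of Cxcl14, Cxcl9 and Cxcl10 in fibroblasts grouped by UMIs of Col15a1 and of Pi16 or Dpp4, as bars for each library with exact 95% Poisson intervals. Cxcl14 stands at 421 and 436 CPM in cells with Col15a1 only and at 1.20 and 23.2 CPM in cells with Pi16 or Dpp4 only.

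Fibroblasts were compared with the mean of the cortical, Aire-expressing and Ccl21a-high gates. Of the 9 chemokines, 1 was higher and 2 were lower in fibroblasts, where 20.7% of all genes tested were higher and 20.2% lower (41% in either direction). The median log2 fold of the 9 was -0.35, against -0.08 over all genes. Cxcl14 was higher by a log2 fold of 4.35 (SE 0.54, edgeR adjusted p = 7.67e-05), with 3.50 and 5.19 within libraries 1 and 2. The size of this fold depends on the cortical gate, which enters the mean with 2 and 0 Cxcl14 UMIs. Pooled over both libraries, Cxcl14 was at 232 CPM in fibroblasts and at 75.8 CPM in these epithelial gates together. Cxcl10 was lower by -2.43 (SE 0.43, adjusted p = 0.000643), with -2.67 and -2.22. Ccl5 was lower by -2.75 (SE 1.00, adjusted p = 0.0452), with -5.26 and -1.64, and lost its call without the highest cell of each sum (log2 fold -1.29, adjusted p = 0.242). Against the Ccl21a-high gate alone, where 15.5% of genes were higher and 13.6% lower (29.1% in either direction), Cxcl10 was the only chemokine to pass, lower in fibroblasts by -2.74 (SE 0.47, adjusted p = 0.000941), with -2.90 and -2.61 within libraries 1 and 2. The fibroblast gate of library 2 also held more UMIs of epithelial and thymocyte genes than that of library 1. Ccl5 was at 66.0 against 3.40 CPM there, Ccl20 at 26.5 against 1.53 CPM, and the 10 thymocyte markers at 1084 against 167 CPM. Their part in the fibroblast values was not tested.

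Endothelium had little of most of these chemokines. Against fibroblasts, 1 of the 9 was lower and none was higher, where 9.86% of all genes tested were lower and 8.71% higher (18.6% in either direction). The median log2 fold of the 9 was -1.91, or -0.84 with genes at 0 set to their bound, against -0.17 over all genes. That gene was Cxcl14, at 2 UMIs in endothelium over both libraries, with a pooled level 86.3-fold lower than in fibroblasts (counting interval 23.9 to 713). Ccl20 and Ccl9 had no UMI in endothelium. Over both libraries this makes Ccl20 at least 2.55-fold and Ccl9 at least 1.79-fold lower there, bounds that rest on library 2. The fibroblast levels of library 1, 1.53 CPM for Ccl20 and 4.99 CPM for Ccl9, lay below the 6.63 CPM that 3 UMIs would give in its endothelium, whereas those of library 2 were 26.5 and 11.4 CPM against 10.3 CPM. Cxcl9 was at 307 and 55.0 CPM in endothelium and at 119 and 134 CPM in fibroblasts (log2 fold 0.26, SE 1.04), with 88 of its 139 UMIs of library 1 in 1 cell. Cxcl10 was at 84.0 and 41.3 CPM in endothelium and at 106 and 84.5 CPM in fibroblasts (log2 fold -0.80, SE 0.53), and neither difference passed.

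Of the 10 receptors and decoys listed for these chemokines 6 passed the filter on low counts, as did 12135 of all 32285 genes. RNA of Ccr1, the receptor of CCL6 and CCL9, was found in the same gate as Ccl6 and Ccl9. CCL5 also binds CCR1, but Ccl5 was at 173 and 345 CPM in the microfold gate and at 688 and 374 CPM in the Aire-expressing gate. It did not pass between the microfold and other mimetic gates. Ccr1 stood at 85.6 and 151 CPM in the microfold gate and at no more than 4.52 CPM in any other gate, and was higher than in the other mimetic gates by a log2 fold of 8.51 (SE 1.16, edgeR adjusted p = 0.00191). In that comparison 2 of the 6 receptors were higher and none was lower, the other being Ccr2 (95.1 and 48.5 CPM in the microfold gate, log2 fold 3.81, SE 0.80), named here after its values were seen. Of 15 other chemokines tested 4 were higher, among them Ccl2, a ligand of CCR2 (152 and 32.3 CPM, log2 fold 7.98, SE 1.20), and Cxcl13 (160.1 and 5.39 CPM, log2 fold 4.60, SE 1.16), with 1 UMI in library 2. Of all genes tested 9.26% were higher and 4.26% lower in this comparison. Tyrobp had no UMI in the microfold gate of either library, the 12 genes listed for macrophages and dendritic cells summed to 130.0 and 226 CPM there with 5 and 10 genes at 0, and the macrophage gate had 5244 and 6365 CPM of that list. Their part in the receptor values was not tested.

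In the Aire-expressing gate, 3 of the 6 receptors were higher than in the Ccl21a-high gate and none was lower. They were Ccr2 (7.65 and 2.65 CPM), Ccr4 (28.2 and 22.2 CPM), the receptor of CCL17 and CCL22, and Ccr6 (18.9 and 13.8 CPM), the receptor of CCL20. The edgeR adjusted p was 0.000254 for Ccr4, 0.00562 for Ccr6 and 0.0170 for Ccr2. In the Ccl21a-high gate Ccr4 was at 0 and 0.759 CPM, Ccr6 at 0.291 and 0 CPM, and Ccr2 had no UMI. Of the 15 other chemokines, 7 were higher and 2 lower, and of 13 interferon and NF-kB input genes 4 were higher and 6 lower, where 21% of all genes tested were higher and 13.6% lower. The macrophage, dendritic and B cell markers given above for these gates were also higher in the Aire-expressing gate, and their part in the receptor values was not tested. Against the cortical gate, 1 receptor, 6 other chemokines and 5 input genes were higher, and 1 other chemokine and 5 input genes were lower, where 19.2% of all genes were higher and 13.2% lower. The largest folds were those of Cxcl3, a neutrophil chemokine at 18.6 and 5.83 CPM in the Aire-expressing gate with no UMI in the cortical gate, of Ccl8, at 25.5 and 70.4 against 0.555 and 0 CPM, and of Ccl19 (5.50, SE 0.61), a CCR7 ligand at 995 and 1051 CPM in the Aire-expressing gate. In tuft and keratinocyte cells against the Aire-expressing gate, 2 receptors, 4 other chemokines and 5 input genes were lower, and 1 other chemokine and 3 input genes were higher, where 17% of all genes were lower and 10.4% higher. The largest folds were those of Ccl2 (-6.04), of Ccr6, with 3 UMIs in the other mimetic cells, and of Cxcl13 (-5.23), the B cell chemokine.

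In fibroblasts against epithelium, 2 receptors, 6 other chemokines and 4 input genes were higher, and 3 other chemokines and 4 input genes were lower, where 20.7% of all genes were higher and 20.2% lower. The largest folds were those of Ackr1, a decoy receptor (5.02, SE 0.59), Ccl11, an eosinophil chemokine (4.59, SE 0.60), and Dpp4, a protease that trims several chemokines (4.37, SE 0.27). Dpp4 is also one of the markers that split the fibroblasts above. In endothelium against fibroblasts, 1 receptor and 1 input gene were higher, and 1 receptor, 5 other chemokines and 1 input gene were lower, where 8.71% of all genes were higher and 9.86% lower. Cxcl13 (195 and 297 CPM in fibroblasts) and Ccl11 (866 and 527 CPM) were among the lower ones. Cxcr3, the receptor of CXCL9 and CXCL10, had UMIs, among the gates, only in the cortical gate of library 1 (0.555 CPM) and the thymocyte gate of library 2 (0.473 CPM). Ifng, the interferon that induces its ligands, reached at most 16.4 CPM, in the cortical gate of library 2.

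The genes whose pattern over the 16 sums of gate and library was most like that of each chemokine were listed by Pearson correlation of log2 CPM, as a description over sums that share their libraries. For Ccl20 they were Ccl6 (r = 0.947) and Ccl9 (0.938), and for Ccl6 and Ccl9 they were Ccl20 and Serpina10 (0.95 and 0.922). Ccl5 was most like H2-Oa (0.915) and Hagh (0.907), Ccl17 like Ogfrl1 (0.925) and Gm50309 (0.911), and Ccl22 like Gm47691 (0.953) and Car6 (0.948). Cxcl9 was most like Slc7a7 (0.870) and Glb1 (0.866), and Cxcl10 like Acad9 (0.945) and Myo1a (0.924). Cxcl14 was most like Col6a2 (0.897), a collagen, and Cpxm2 (0.874). The only pairs of the 10 chemokines among these likeness lists were Ccl20 with Ccl6 and Ccl20 with Ccl9.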

How the data were processed

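The deposited values are raw counts of UMIs, not normalised, for each gene and cell barcode of 2 libraries. Cell Ranger 6.0.0 made the matrices, per the file headers; Cell Ranger 7 is given in the submitters' processing notes, with Seurat 4 and mm10. A UMI count is a count of tagged molecules, and 3' tags count transcripts regardless of length.

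Cells with at least 1000 UMIs, 500 genes and at most 10% mitochondrial UMIs were kept (3588 and 8186). A cell was given a lineage when at least 3 of its markers were detected, and 2 more than for any other of 9 lineages. Cells with markers of several lineages stayed out, and no doublet caller was run. Within epithelium the gates asked for at least 1 Aire UMI, at least 20 Ccl21a UMIs per 10000, at least 4 of 7 cortical, 5 of 10 tuft or keratinocyte markers, 3 of 6 microfold markers with 15 UMIs per 10000, or 3 of 7 secretory markers with 30 per 10000. Mimetic gates took precedence. Cells that met 2 mimetic rules, or held Aire and met the cortical or Ccl21a rule, stayed ungated. Thresholds were set after marker levels were seen, and the 10 chemokines and the gene lists were chosen with earlier results of these data known.

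UMIs were summed per library and gate and tested with edgeR 4.0.16 (TMM, filterByExpr, quasi-likelihood test, Benjamini-Hochberg adjustment over 12135 genes, threshold 0.05) under R 4.3.3. Because each gate comes from both libraries, the library was the block. Of the planned gates, the secretory one fell out with under 10 cells in library 1. The script was tested on simulated counts. A CPM is the gate's UMIs of a gene per 1000000 of its UMIs, with exact 95% Poisson intervals. Shares were thinned to 1000 UMIs per cell, with no cell left out. Pooled ratios are given where a gate had 3 or fewer UMIs, and bounds use 3 counts over both libraries. All 10 chemokines are named, with up to 3 listed pathway genes per comparison by size of fold. Other pathway genes are named with their levels where they are the receptor or inducer of one. Cxcl11, of the listed chemokines, was not analysed here. Some listed pathway genes are not reported here and enter no count; the counts cover the rest of each list, named or not. Alternatives were DESeq2 1.42.0, RLE scaling, no low-count filter, no library block, deeper cells, stricter gates and single libraries, with a stricter Aire rule and sums without their highest cell added after seeing the data.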

Additional observations from a re-analysis of the deposited data

How the results depend on the processing

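Of 640 values of single chemokines under the alternatives, 527 stayed the same, 14 lost and 26 gained a call, and 15 changed sign, none of them called. The 8 pairs of chemokine and comparison that had 3 or fewer UMIs in a gate and no call were left out. Staying the same meant keeping direction and side of the threshold, except for 70 single-library values, which have no p-value. Those 70 lay within the SE of the fitted fold, whatever their sign. The other 58 are single-library values that moved by more than this SE. Sign changes of uncalled chemokines within a single library are not among the 15. One such was Ccl5 between microfold and other mimetic cells, at -0.06 in library 1 and 2.36 in library 2. Without the low-count filter (25779 genes), more chemokines passed: 10 instead of 6 between the Aire-expressing and Ccl21a-high gates, 8 instead of 3 between other mimetic and Aire-expressing cells, 5 instead of 3 between fibroblasts and epithelium, 5 instead of 1 between endothelium and fibroblasts, 7 instead of 3 between microfold and Aire-expressing cells and 4 instead of 1 between fibroblasts and Ccl21a-high cells. Without the highest cell of each sum, 6 instead of 3 passed between other mimetic and Aire-expressing cells. The cause was not tested. Without the replicate block, in which the library pairs the gates, the counts stayed at 6, 7, 7, 3, 3 and 1 in the planned comparisons and 3 and 1 in the added ones, with every call kept. A single library leaves no residual degrees of freedom, so it gave values and no counts of calls. Its values are differences of scaled log2 CPM, a measure unlike the fitted folds they are set beside.

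The 15 sign changes under alternatives that gave a test, as log2 folds, were as follows. For fibroblasts against epithelium, Cxcl9 (-0.35) became 0.057 without the filter, 0.51 with stricter gates and 0.17 without the highest cells, and Ccl6 (0.48) became -0.087 with stricter gates. For endothelium against fibroblasts, Cxcl9 (0.26) became -0.27 without the filter and -0.57 without the highest cells. For microfold against Aire-expressing cells, Cxcl9 (0.04) became -0.0054 with DESeq2, -0.034 without the filter and -0.47 without the highest cells, and Ccl22 (1.68) became -1.29 without the highest cells. For fibroblasts against Ccl21a-high cells, Ccl22 (-0.23) became 0.0038 with DESeq2, 0.080 without the filter and 0.16 without the highest cells, and Ccl17 (-0.91) became 0.10 with stricter gates and 0.37 without the highest cells. The cause was not tested.

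Thinning to 2000 UMIs moved the mean share of 2 libraries from 45.6% to 50% for Ccl6 in the microfold gate, from 16.5% to 22.5% for Ccl5, 26.0% to 39.3% for Cxcl9 and 44.5% to 56.8% for Cxcl10 in the Aire-expressing gate, and for Cxcl14 from 13.6% to 24.9% in the Ccl21a-high and 11.2% to 16.2% in the fibroblast gate. This setting also left out cells with fewer UMIs, in library 2 13 of 29 microfold, 32 of 162 Aire-expressing, 127 of 302 Ccl21a-high and 1174 of 2473 fibroblast cells. Ccl20 and Ccl9 in the microfold gate went from 67.9% to 63.8% and from 57.3% to 54.8%, and Ccl17 in the Aire-expressing gate from 4.86% to 7.75%, each by less than the spread between libraries. Stricter gates gave 50% for Ccl6, 25.0% for Cxcl9 and 11.7% for Cxcl14 in fibroblasts. The microfold gate, with 35 and 29 cells, limits the precision of its shares.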
